A study of Homo sapiens with 4 samples.

Results

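Heat-shock and housekeeping chaperones of the cytosol and mitochondria were examined as a set of 37 genes in HCT116 cells carrying a hairpin against WDR43. The genes were chosen by name and by role, and all 37 were found by Ensembl identifier and symbol among the 29286 genes of the deposited tables. They comprise 12 genes of the HSP70 system and its heat-inducible partners, 7 of HSP90 and its cochaperones, 8 of the chaperonin TRiC, 6 of prefoldin and 4 of mitochondria. HCT116 is an established human colorectal carcinoma cell line. In all 4 RNA sequencing libraries the cells had been infected with lentivirus for 48 h and then kept under puromycin for 3 days. The control group, 2 libraries, received the hairpin shNC (shNC2 in the sample titles), and the knockdown group, 2 libraries, received shWDR43. WDR43 is a nucleolar protein of the machinery that assembles the small ribosomal subunit, and the comparison asks how its knockdown bears on gene expression. The labels name 1 hairpin per group and do not say whether the replicates were separate cultures, so the p-values reflect no more than library-to-library spread, part of which may be technical. The level of WDR43 was not analysed here, so the hairpin labels were not checked against their target.

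Chaperones bind unfolded or partly folded proteins, and some of them use cycles of ATP binding and release to let these proteins fold. HSP70 proteins work with J-domain proteins, which deliver clients, and with nucleotide exchange factors, which release them. HSP90 finishes the folding of kinases and receptors with the help of cochaperones, while prefoldin hands actin and tubulin chains to the barrel-shaped chaperonin TRiC. Proteotoxic stress activates the transcription factor HSF1, which binds inverted repeats of GAA, called heat-shock elements, and raises a subset of these genes. Colon carcinoma lines, like other rapidly growing cells, express many of them at high levels without heat.

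Values were read as FPKM, a fragment count scaled to gene length and library size, and summed to 393582 to 413758 per library. No read totals were used here, which leaves the depth unknown. Genes named MT-, of the mitochondrial genome, held 26.8% and 25.5% of that sum in shNC replicates 1 and 2 and 24.6% and 23.9% in shWDR43 replicates 1 and 2. The 37 chaperone genes held 1.61% and 1.70% in shNC and 1.77% in each shWDR43 library. Of the sum without the MT- genes they held 2.20% and 2.29% in shNC and 2.35% and 2.32% in shWDR43. Of 9 epithelial markers fixed for the cell line 8 were listed, among them EPCAM at 154 to 181 FPKM, and their summed level was 1745 and 2067 FPKM in shNC against 2501 and 2443 FPKM under shWDR43, carried mostly by keratin genes. VIL1 and LGALS4, markers of differentiated gut epithelium, stayed below 0.1 FPKM in every library. Listed leukocyte (2 of 4) and endothelial (4 of 4) markers summed to less than 0.5 FPKM in every library. The fibroblast markers (3 of 4 listed) summed to 5.69 to 7.80 FPKM, nearly all from COL1A1, with COL3A1 and DCN at or near 0. The part of the mitochondrial and keratin differences in the results below was not tested.

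Heat-shock element letters were looked for in the promoters of the set. The search was for 3 units in alternating orientation, GAA, TTC and GAA or TTC, GAA and TTC, with 2 bases of any kind between neighbours, in RefSeq promoter windows of GRCh38.p14 that run from 250 bases before to 50 after each start. Windows were found for 33 of the 37 genes, the other four being FKBP4, PFDN2, CCT6A and HSF1. The element stood in at least 1 window of 6 of these 33 genes (18.2%), against 0.608% of all 27305 genes with windows, and a match is a description of letters, not of binding. A shorter pair of repeats, GAANNTTC or TTCNNGAA, each its own reverse complement and contained in the longer element, stood in 16 of the 33 (48.5%) against 16.2% of all genes. The sites of the longer element are printed 5′ to 3′ on the strand of the gene, with the element in capitals, because HSF1 is known to act through such elements and the levels of their genes follow.
HSPA8, chr11:123062346-123062374, minus strand: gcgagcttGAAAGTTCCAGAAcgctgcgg
HSPA8, chr11:123062171-123062199, minus strand: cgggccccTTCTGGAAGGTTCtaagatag
DNAJA1, chr9:33025268-33025296, plus strand: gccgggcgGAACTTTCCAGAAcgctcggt
DNAJB6, chr7:157336865-157336893, plus strand: agagccgaGAACCTTCGCGAAggtggggc
HSP90AA1, chr14:102087112-102087140, minus strand: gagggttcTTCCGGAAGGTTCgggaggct
HSP90AB1, chr6:44247770-44247798, plus strand: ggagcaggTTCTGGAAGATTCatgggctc
HSP90AB1, chr6:44247823-44247851, plus strand: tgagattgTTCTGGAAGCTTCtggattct
HSPD1, chr2:197500062-197500090, minus strand: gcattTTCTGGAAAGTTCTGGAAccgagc
In HSPD1 the capitals cover 2 overlapping elements. They run from 245 to 228 bases before the RefSeq start at 197499840. The HSPD1 start nearest to HSPE1, at 197500274, lies upstream of them. In HSPA8 the second site ends 43 bases before the RefSeq start, whereas in DNAJA1 the element begins 3 bases after it. None of these 6 genes passed the test described next, where 6.26% of all tested genes did. Their log2 differences ran from -0.16 in HSPA8 to 0.24 in DNAJB6 and HSPD1. The longer element was not found in the windows of HSPA1A, HSPA1B, DNAJB1, HSPH1, BAG3 and HSPB1. Of these, HSPA1A, HSPA1B, DNAJB1 and HSPB1 held the shorter pair, and HSPH1 and BAG3 did not. No response to heat was measured here, so neither a match nor its absence shows which genes of the set respond. HSF1 activity was not tested.

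Only FKBP4 passed the test among the 37 chaperone genes. The test was limma on log2(FPKM + 1) over 13303 genes with at least 1 FPKM in 2 or more libraries, with an adjusted p threshold of 0.05, and all 37 genes were above that minimum. FKBP4 rose, 36 of the 37 were not called and 0 fell, so that 2.70% of the set was called against 6.26% of all tested genes. At an unadjusted p below 0.05 the same fit held 13 higher and 1 lower chaperone gene, 14 of 37, against 26.4% of all tested genes. Across all tested genes 4.79% rose and 1.47% fell, 637 and 196 genes, a split that was 194 and 182 after upper-quartile scaling. In bulk RNA, a change in the number of cells of a kind and a change in RNA per cell cannot be told apart.

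The levels spanned about 3 orders of magnitude on the per-length FPKM scale. HSP90AB1 and HSP90AA1 stood first and second in mean level over the 4 libraries, followed by HSPA8 and HSPD1. HSPA1A stood last. All 37 log2 differences between the groups lay within 0.5 of 0 on the log2(FPKM + 1) scale, and the 95% intervals, taken gene by gene, reached from -0.50 for HSPA9 to 0.64 for FKBP4. None of these intervals therefore includes a doubling or a halving on that scale.

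**Figure D1:**
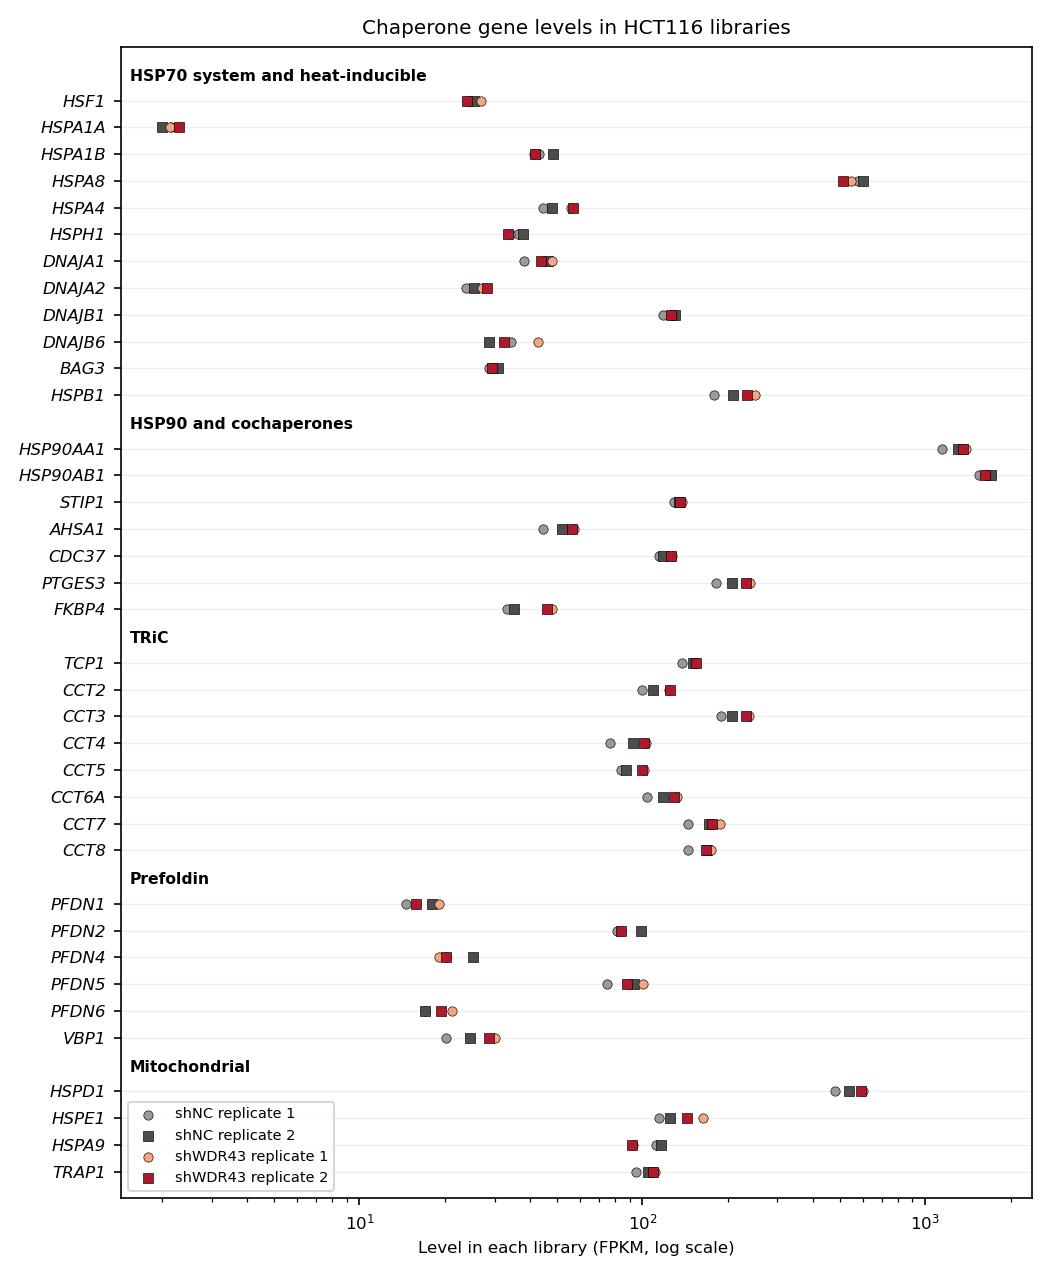
Level of each of the 37 chaperone genes in each of the 4 libraries, in FPKM on a log axis, grouped by role; circles are replicate 1, squares replicate 2, greys shNC and reds shWDR43. The spread between genes, from about 2 FPKM for HSPA1A to 1699 FPKM for HSP90AB1, is far wider than the spread between libraries.

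The direction of the differences was mostly upward and small. Of the 37 genes 30 had a positive log2 difference, with 58% positive among all tested genes. Both shWDR43 libraries lay above both shNC libraries in 21 of the 37, where 35.8% of all tested genes did so, and below both in 4, where 21.5% did so. The median log2 difference was 0.16 over the 37 genes and 0.05 over all tested genes. Leaving out shNC replicate 2 gave a median of 0.24, and leaving out shNC replicate 1 a median of 0.08.

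The size of these differences depended on which control library was used. In shNC replicate 1 the level was below that in shNC replicate 2 for 34 of the 37 genes, with a median log2 difference between the controls of 0.14, whereas 48.2% of all tested genes were lower in replicate 1. Among the 4017 tested genes that averaged 14 FPKM or more, a level chosen after the values were seen, 61.6% were lower in replicate 1, with a median log2 difference between the controls of 0.05. The same library was the lowest of the 4 for 29 of the 37 genes (78.4%), against 32.0% of all tested genes and 44.0% of those 4017 genes. In a fit without 1 library, the residual spread came from the other group alone, so its calls also moved with that spread. Without shNC replicate 2, 18 of the 37 rose and 1 fell, where 13.8% and 6% of all tested genes did so. Without shNC replicate 1, 1 rose and 3 fell, where 9.46% and 4.10% of all tested genes did so. Without shWDR43 replicate 1, limma called 0 of the 37, where 1.87% of all tested genes rose and 1.01% fell, and without shWDR43 replicate 2 it again called 0, where 2.37% rose and 1.05% fell. Median-ratio scaling, upper-quartile scaling and no filter on low values also left 0 of the 37 rising, where 2.33%, 1.46% and 0.0557% of all tested genes rose. When the replicate numbers were crossed between the groups as blocks, 5 of the 37 rose and 1 fell, where 10.3% and 4.35% of all tested genes did so. Those rising were FKBP4, HSPA4, HSPB1, VBP1 and HSPE1, and HSPA9 fell. Under median-ratio scaling, upper-quartile scaling and no filter, 0 of the 37 fell, where 1.05%, 1.37% and 0.00742% of all tested genes fell. With a pseudocount of 0.1, a filter at 5 FPKM, robust settings off and the replicate block, FKBP4 was the sole chaperone gene to rise and 0 fell, where 4.66%, 9.34%, 4.19% and 3.1% of all tested genes rose and 1.42%, 2.9%, 1.29% and 1.13% fell.

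**Figure D2:**
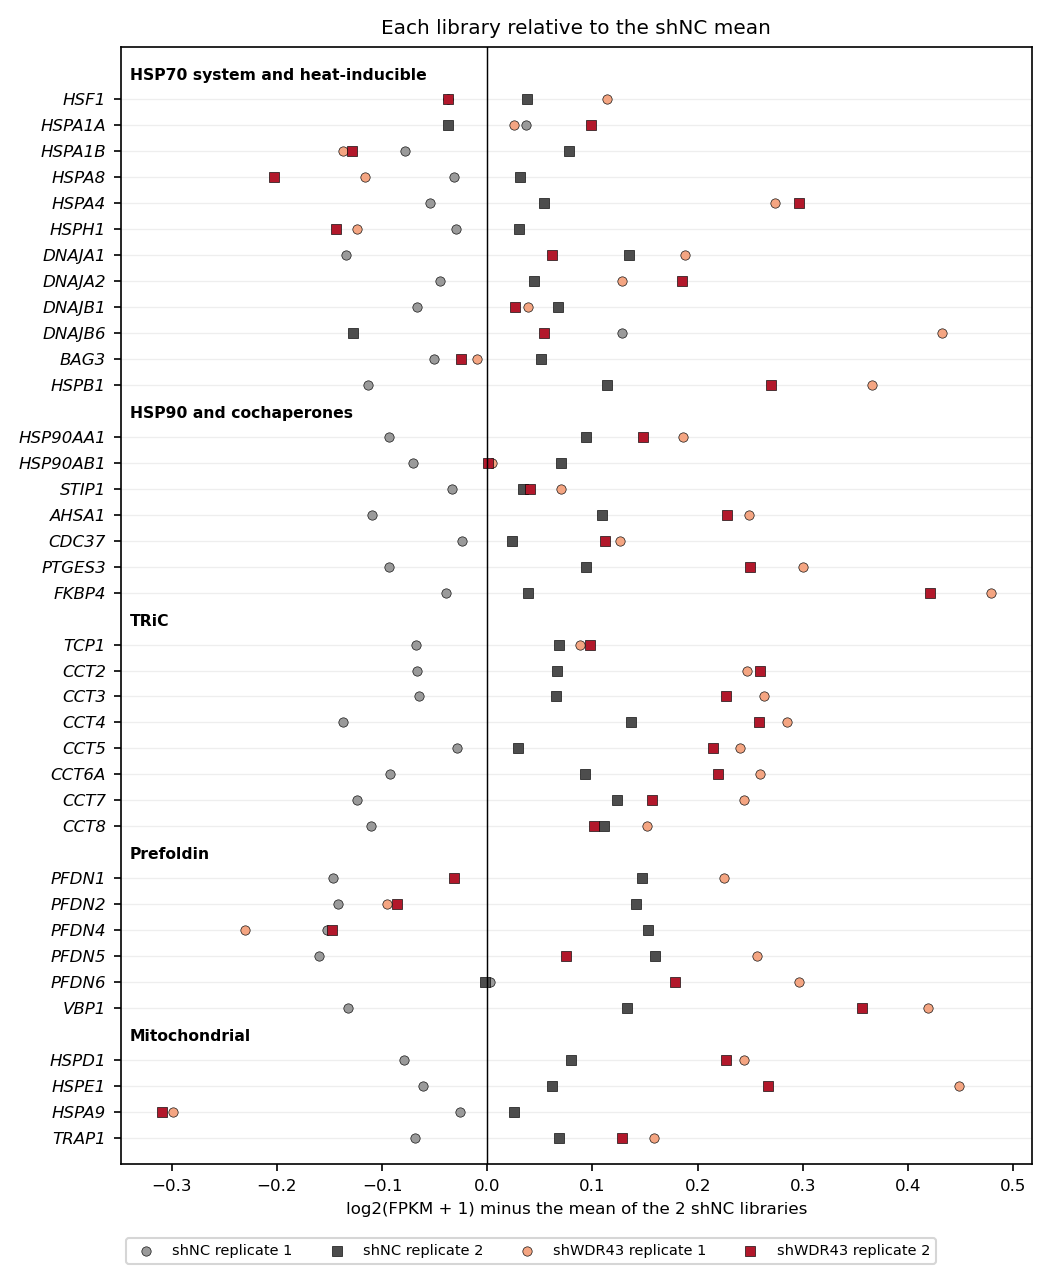
Value of each library on the log2(FPKM + 1) scale minus the mean of the 2 shNC libraries, for the 37 chaperone genes grouped by role; symbols as for the levels. The shNC replicate 1 circle is leftmost of the 4 for 29 genes, and both red symbols lie to the right of both grey ones for 21 genes.

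Among the 12 genes of the HSP70 system 0 were called by limma, where 6.26% of all tested genes were. Of the 12, 2 had an unadjusted p below 0.05, against 26.4% of all tested genes. Their median log2 difference was 0.05, the same to 2 decimals as over all tested genes. HSF1, the gene of the stress-activated transcription factor, was at 24.1 and 25.4 FPKM under shNC and 26.8 and 24.1 FPKM under shWDR43. Its groups overlapped, with a log2 difference of 0.04 and a 95% interval from -0.17 to 0.25 (adjusted p = 0.825).

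The genes of the HSP70 form known for its induction by heat, HSPA1A and HSPA1B, were not called. HSPA1A and HSPA1B lie close together on chromosome 6, at 31815464 to 31817946 and 31827735 to 31830255 in GENCODE release 29 of GRCh38. HSPA1A was at 2.17 and 2.01 FPKM under shNC and 2.14 and 2.30 FPKM under shWDR43. HSPA1B was at 43.1 and 48.1 FPKM under shNC and 41.3 and 41.6 FPKM under shWDR43, lower in both knockdown libraries, with a log2 difference of -0.13 ± 0.09 (SE, adjusted p = 0.362). Their coding sequences, 1923 bases long, differ at 4 positions (99.8% identity), and 72.6% of the 50-base stretches of the HSPA1A transcript also occur in transcripts of other genes. The share of reads given to either gene is therefore uncertain, and the sum is the safer quantity. The summed level was 45.3 and 50.1 FPKM under shNC and 43.5 and 43.9 FPKM under shWDR43, a ratio of means of 0.915. HSPA6, an HSP70 gene known to be nearly silent without stress, was listed at 0 in 3 libraries and at 0.0209 FPKM under shWDR43 replicate 2.

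Other partners that are known to respond to heat were not called either. DNAJB1, the J-domain partner most closely tied to the heat response, was at 118 and 130.0 FPKM under shNC and 127 and 126 FPKM under shWDR43 (log2 difference 0.03, 95% interval -0.18 to 0.25). BAG3, a nucleotide exchange factor that links HSP70 to autophagy, was at 28.8 and 31.0 FPKM against 29.6 and 29.3 FPKM. For both genes the knockdown values fell between the control values. HSPH1, an HSP110-class exchange factor, was at 36.2 and 37.8 FPKM under shNC and 33.9 and 33.4 FPKM under shWDR43, lower without overlap but not called (adjusted p = 0.315).

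HSPB1, which encodes the small heat-shock protein HSP27, was at 179 and 209.7 FPKM under shNC and 250.01 and 234 FPKM under shWDR43. The groups did not overlap, the ratio of means was 1.24 and the log2 difference was 0.32 ± 0.11 (SE), but the gene was not called (adjusted p = 0.124). HSPB1 passed without shNC replicate 2 (adjusted p = 0.00758), the range over its alternatives being 0.00758 to 0.652.

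HSPA8 and HSPA4 had differences of opposite sign, neither past the threshold. HSPA8, the main constitutive cytosolic HSP70 and a carrier of heat-shock elements shown above, was at 577 and 602 FPKM under shNC and 544 and 512 FPKM under shWDR43. It was lower in both knockdown libraries, with a ratio of means of 0.896 (adjusted p = 0.380). HSPA4, an HSP110-class exchange factor, was at 44.5 and 48.0 FPKM under shNC and 56.1 and 57.0 FPKM under shWDR43. HSPA4 was higher without overlap, with a ratio of 1.22 and a log2 difference of 0.28 ± 0.08 (adjusted p = 0.0778), and passed without shNC replicate 2 (adjusted p = 0.0133, range over its alternatives 0.0133 to 0.449).

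The J-domain genes DNAJA1, DNAJA2 and DNAJB6, which feed clients to HSP70, had positive log2 differences of 0.12, 0.16 and 0.24. DNAJA2 was the sole gene of these without overlap, at 23.9 and 25.5 FPKM under shNC and 27.0 and 28.2 FPKM under shWDR43 (adjusted p = 0.271). DNAJB6 was at 34.3 and 28.6 FPKM under shNC and 42.6 and 32.5 FPKM under shWDR43, and its value in shWDR43 replicate 2 was below that of shNC replicate 1. A gene listed elsewhere in the annotation, AP001000.1, shares 30.6% of the 50-base stretches of DNAJB6 but stayed below 1 FPKM.

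Among HSP90 and its cochaperones all 7 log2 differences were positive, 6 of the 7 were higher without overlap, and 1 gene rose. Among all tested genes 58% were positive, 35.8% were higher without overlap and 4.79% rose. FKBP4, on chromosome 12 (2794953 to 2805423), encodes FKBP52, an immunophilin that joins HSP90 in steroid receptor complexes. Its level was 33.2 and 35.1 FPKM under shNC and 47.9 and 46.0 FPKM under shWDR43. Both knockdown libraries lay well above both controls, and the gap between the groups was wider than the gap within either. The ratio of means was 1.38, with group means of 34.1 ± 1.34 and 47.0 ± 1.35 FPKM (SD, 2 libraries each), and the log2 difference was 0.45 ± 0.08 (SE; limma adjusted p = 0.0287). The call was lost without shWDR43 replicate 1 (adjusted p = 0.149) or replicate 2 (0.0752), after median-ratio scaling (0.0510) or upper-quartile scaling (0.0642) and with no filter on low values (0.125). Over its 12 alternatives the adjusted p ran from 0.00576 to 0.149, and the log2 difference stayed between 0.38 and 0.49. Genes on the opposite strand overlap exons of FKBP4, each over less than 6% of its exon bases and, where listed, at less than 0.2 FPKM.

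Next in size were PTGES3 and AHSA1. PTGES3 encodes p23, which stabilises the closed form of HSP90, and was at 183 and 208 FPKM under shNC and 240.2 and 232 FPKM under shWDR43. Its log2 difference of 0.27 ± 0.10 was not called (adjusted p = 0.149). AHSA1 encodes AHA1, which stimulates the HSP90 ATPase, and was at 44.4 and 51.8 FPKM against 57.2 and 56.3 FPKM (log2 difference 0.24, adjusted p = 0.161). Both passed without shNC replicate 2, at adjusted p of 0.00946 for PTGES3 and 0.0122 for AHSA1, where the highest values over the alternatives were 0.690 and 0.588.

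The client-loading cochaperones differed less. CDC37, which brings kinases to HSP90, was at 115 and 119 FPKM under shNC and 127 and 126 FPKM under shWDR43 (log2 difference 0.12, adjusted p = 0.411). STIP1, or HOP, which bridges HSP70 and HSP90, was at 129 and 135 FPKM under shNC and 138 and 136 FPKM under shWDR43. For STIP1 the lower knockdown value exceeded the higher control value by less than the controls differed from each other.

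Neither the inducible nor the constitutive HSP90 gene was called. HSP90AA1, the inducible form, was at 1146 and 1304 FPKM under shNC and 1391 and 1355 FPKM under shWDR43 (log2 difference 0.17, 95% interval -0.11 to 0.45). HSP90AB1, the constitutive form, was at 1541 and 1699 FPKM under shNC and 1624 and 1619 FPKM under shWDR43 (log2 difference 0.00261, 95% interval -0.27 to 0.28). Within a library the ratio of HSP90AB1 to HSP90AA1 was 1.34 and 1.30 in shNC and 1.17 and 1.19 in shWDR43, a quantity chosen after the values were seen and given with no test. HSP90AA1 passed without shNC replicate 2 (adjusted p = 0.0277, range over its alternatives 0.0277 to 0.884).

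**Figure D3:**
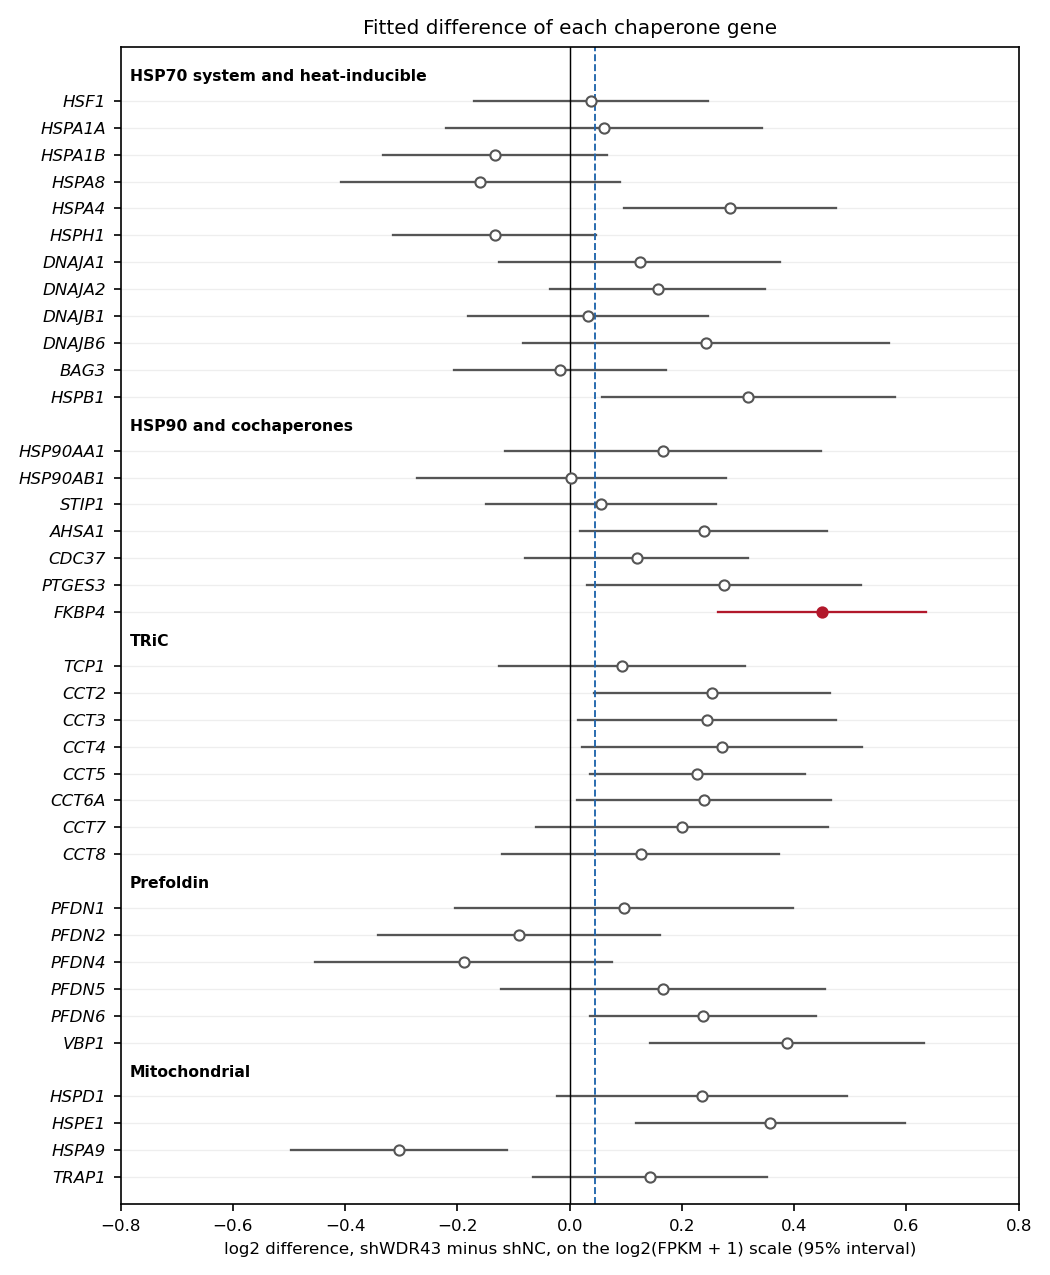
Fitted log2 difference of each chaperone gene, shWDR43 minus shNC, on the log2(FPKM + 1) scale, with its 95% interval from limma; the filled red symbol marks the gene with an adjusted p below 0.05, and the dashed blue line is the median of all tested genes, 0.05. FKBP4 is the filled symbol at 0.45, the 8 TRiC subunits lie between 0.09 and 0.27, and HSPA9 lies lowest at -0.30.

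All 8 TRiC subunit genes had positive log2 differences, from 0.09 for TCP1 to 0.27 for CCT4, with a median of 0.23. Limma called 0 of the 8. Among all tested genes 58% were positive and 6.26% were called. At an unadjusted p below 0.05 there were 5 of 8, against 26.4% of all tested genes. The groups did not overlap for 7 of the 8, CCT8 being the exception, where 35.8% of all tested genes were higher without overlap. TRiC is a double ring in which each ring holds a copy of every subunit, so the subunits are needed in equal amounts.

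CCT4 was at 76.5 and 92.7 FPKM under shNC and 103 and 101 FPKM under shWDR43 (adjusted p = 0.159). CCT2 was at 99.3 and 109 FPKM under shNC and 124 and 125 FPKM under shWDR43, a ratio of 1.19 (adjusted p = 0.127). CCT5 was at 83.9 and 87.4 FPKM under shNC and 101 and 99.6 FPKM under shWDR43, a ratio of 1.17 (adjusted p = 0.132). In these genes the knockdown libraries were close to each other and the controls further apart, with shNC replicate 1 the lowest.

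CCT3 was at 189 and 207 FPKM under shNC and 237 and 232 FPKM under shWDR43. CCT6A was at 104 and 118 FPKM against 133 and 129 FPKM. Both had a log2 difference of 0.24 without overlap. CCT7 was at 145 and 172 FPKM under shNC and 188 and 176 FPKM under shWDR43, so that its controls differed by more than shNC replicate 2 did from either knockdown library. TCP1, the alpha subunit, was at 138 and 151 FPKM against 154 and 155 FPKM, and CCT8 at 145 and 169 FPKM against 174 and 168 FPKM.

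Shared movement of the subunits was seen between the controls as well. All 8 were lower in shNC replicate 1 than in replicate 2, by a median of 0.16, and in all 8 shNC replicate 1 was the lowest of the 4 libraries. The median difference of the subunits was 0.32 against shNC replicate 1 and 0.14 against shNC replicate 2. Without shNC replicate 2, 7 of the 8 rose, where 13.8% of all tested genes did, and without any of the other libraries 0 did. The summed TRiC level was 980.4 and 1107 FPKM under shNC and 1213 and 1185 FPKM under shWDR43, a ratio of means of 1.15. CCT3 was the highest subunit in every library, at 2.33 to 2.47 times the level of the lowest, which was CCT4 in shNC replicate 1 and CCT5 in the others.

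Prefoldin subunit genes went in both directions, with 4 positive and 2 negative log2 differences, where 58% of all tested genes were positive. Limma called 0 of the 6, where it called 6.26% of all tested genes. At an unadjusted p below 0.05 there were 2 of the 6, against 26.4% of all tested genes. VBP1, or prefoldin 3, was at 20.2 and 24.5 FPKM under shNC and 30.1 and 28.8 FPKM under shWDR43. It was higher without overlap, by a ratio of 1.32 and a log2 difference of 0.39 ± 0.10 (adjusted p = 0.0690), the second largest of the 37. VBP1 passed without shNC replicate 2 (adjusted p = 0.00633, range over its alternatives 0.00633 to 0.273).

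PFDN6 was at 17.1 and 17.0 FPKM under shNC and 21.2 and 19.4 FPKM under shWDR43 (log2 difference 0.24, adjusted p = 0.135). RGL2 and WDR46 on the opposite strand overlap 24.5% and 7.65% of the exon bases of PFDN6. RGL2 was at 11 and 11.8 FPKM under shNC and 11.1 and 11.5 FPKM under shWDR43. WDR46 was at 9.77 and 10.9 FPKM against 15.2 and 13.1 FPKM, higher without overlap like PFDN6. Whether strand was used in counting is not stated in what was used here, which makes the level of PFDN6 uncertain. PFDN4 was at 20.2 and 25.2 FPKM under shNC and 19.1 and 20.3 FPKM under shWDR43, with a log2 difference of -0.19 that was -0.34 without shNC replicate 1 and -0.04 without replicate 2. PFDN2 was at 81.0 and 98.8 FPKM under shNC and 83.7 and 84.2 FPKM under shWDR43, inside the control range, and its log2 difference of -0.09 was 0.05 without shNC replicate 2. Without shNC replicate 1, PFDN2 and PFDN4 fell (adjusted p = 0.0468 and 0.0363), whereas over the alternatives the adjusted p reached 0.895 and 0.783.

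PFDN1 and PFDN5 overlapped between the groups. PFDN1 was at 14.6 and 18.1 FPKM under shNC and 19.1 and 15.9 FPKM under shWDR43, and PFDN5 at 74.7 and 93.5 FPKM against 100.04 and 88.1 FPKM. When a library was left out, the log2 difference ran from -0.05 to 0.24 for PFDN1 and from 0.01 to 0.33 for PFDN5. The highest of each was without shNC replicate 2. The median difference of the 6 prefoldin genes was 0.24 against shNC replicate 1 and -0.02 against shNC replicate 2. Their levels were less even than those of TRiC, the highest being 5.24 to 5.80 times the lowest within a library.

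**Figure D4:**
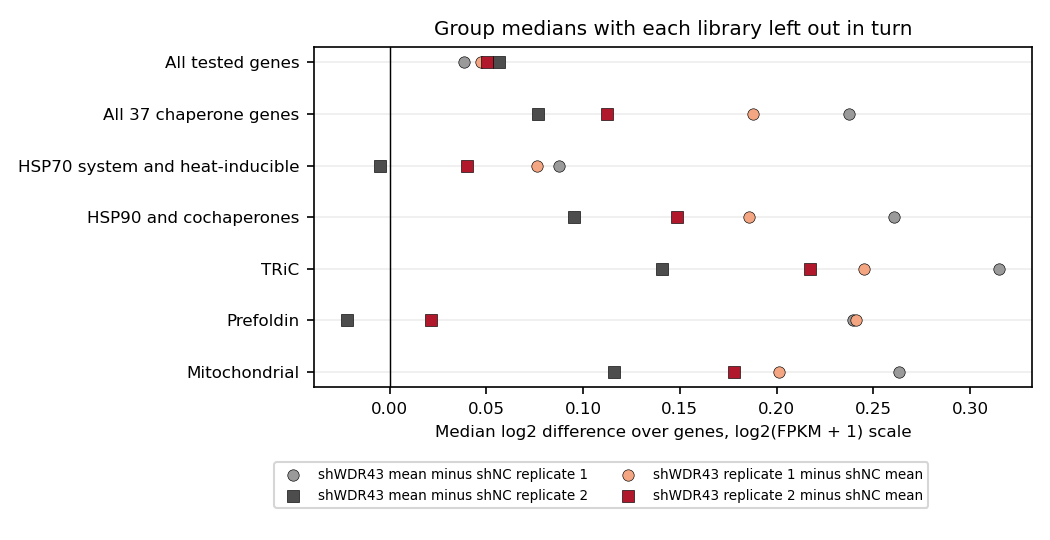
Median log2 difference over all tested genes, over the 37 chaperone genes and over each role, on the log2(FPKM + 1) scale, when 1 library at a time is left out (grey, the shWDR43 mean against a single shNC library; red, a single shWDR43 library against the shNC mean). The chaperone medians are higher against shNC replicate 1 than against replicate 2 in every role (0.24 and 0.08 over the 37 genes), while those of all tested genes stay between 0.04 and 0.06.

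The 4 mitochondrial chaperone genes separated into 3 that were higher and 1 that was lower, all without overlap and 0 called, with 2 at an unadjusted p below 0.05. Among all tested genes 35.8% were higher and 21.5% lower without overlap, 6.26% were called, and 26.4% had an unadjusted p below 0.05. HSPA9 encodes mortalin, the mitochondrial HSP70 that pulls proteins through the inner membrane, and lies on chromosome 5 (138553756 to 138575724). It was at 112 and 116.1 FPKM under shNC and 92.5 and 91.8 FPKM under shWDR43. The log2 difference of -0.30 ± 0.08 (SE), a ratio of means of 0.808, was the lowest of the 37 and was not called (adjusted p = 0.0701). HSPA9 fell without shNC replicate 1 (adjusted p = 0.0192) and without shNC replicate 2 (0.0196), with a difference between -0.33 and -0.28 whichever library was left out, and its adjusted p over all alternatives ran from 0.0192 to 0.484.

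HSPD1 and HSPE1 encode HSP60 and its lid HSP10, which together form the folding chamber of the matrix. They face away from each other on chromosome 2, with the RefSeq starts 104 bases apart at the closest. HSPD1 was at 480.1 and 536 FPKM under shNC and 601 and 594 FPKM under shWDR43, a ratio of 1.18 (log2 difference 0.24, adjusted p = 0.222). HSPE1 was at 114 and 125 FPKM under shNC and 163 and 144 FPKM under shWDR43, a ratio of 1.29 (log2 difference 0.36 ± 0.10, adjusted p = 0.0789). Both genes were higher in each knockdown library than in each control. Both passed without shNC replicate 2, at adjusted p of 0.0140 for HSPD1 and 0.0160 for HSPE1, and the highest values over their alternatives were 0.781 and 0.599. Pseudogenes and a read-through gene share 24.8% of the 50-base stretches of the HSPD1 transcript and 27.2% of those of HSPE1, and their exons overlap each other on opposite strands, so both levels carry some uncertainty.

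HSPD1 and HSPA9, chaperones of the same matrix, therefore stood on opposite sides of their controls. The ratio of HSPD1 to HSPA9 within a library was 4.29 and 4.62 in shNC and 6.498 and 6.47 in shWDR43, a quantity chosen after the values were seen and given with no test. TRAP1, the mitochondrial HSP90, was at 94.8 and 104 FPKM under shNC and 111 and 109 FPKM under shWDR43 (log2 difference 0.14, adjusted p = 0.346). Its log2 difference ran from 0.08 to 0.21 when a library was left out, the highest being without shNC replicate 2. Exons of DNASE1 on the opposite strand overlap 29.3% of the exon bases of TRAP1, at 4.22 to 5.01 FPKM.

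A further list of 66 chaperone and cochaperone genes was set beside the 37, of which 62 were tested. In it 3 rose and 0 fell, 4.84% called against 6.26% of all tested genes, with a median log2 difference of 0.07. At an unadjusted p below 0.05 it held 11 higher and 4 lower genes, 15 of 62, against 26.4% of all tested genes. HSPA4L, a relative of HSPA4 and an HSP110-class exchange factor, was at 5.13 and 4.65 FPKM under shNC and 7.34 and 7.85 FPKM under shWDR43, a ratio of 1.55 (log2 change 0.55 ± 0.10, limma adjusted p = 0.0317). Over its alternatives the adjusted p ran from 0.00894 to 0.125, and the call was lost without shWDR43 replicate 2 (0.110) and with no filter (0.125).

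STUB1 encodes CHIP, the ubiquitin ligase that marks HSP70 and HSP90 clients for degradation, and was at 15.9 and 19.4 FPKM under shNC and 25.7 and 25.8 FPKM under shWDR43. It rose by a log2 change of 0.53 ± 0.11 (limma adjusted p = 0.0345), lost after median-ratio scaling (0.0597), after upper-quartile scaling (0.0729) and with no filter (0.133), the range being 0.00324 to 0.133. JMJD8 on the opposite strand overlaps 42.4% of the exon bases of STUB1 and was at 11.8 and 11.9 FPKM against 15.1 and 13.3 FPKM, so the level of STUB1 is uncertain. RUVBL1 encodes an ATPase of the R2TP complex that works with HSP90. EEFSEC and SEC61A1 on the opposite strand overlap 5.39% and 5.0% of its exon bases, so its level carries some uncertainty. EEFSEC was at 3.81 to 4.28 FPKM. SEC61A1 was at 34.2 and 35.2 FPKM under shNC and 41.9 and 43.25 FPKM under shWDR43. RUVBL1 itself was at 31.7 and 34.4 FPKM under shNC and 45.9 and 42.2 FPKM under shWDR43. It rose by 0.40 ± 0.09 (limma adjusted p = 0.0403), with an adjusted p from 0.00889 to 0.295 over its alternatives. That call was lost under either scaling (0.0703 and 0.0939), with no filter (0.140), with a replicate block (0.0697) and without shWDR43 replicate 1 (0.295) or 2 (0.0899).

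The other 59 tested genes of this list were not called, with log2 differences from -0.33 for SUGT1 to 0.46 for HSPB8. The 10 further mitochondrial chaperones and proteases had a median of -0.01 with 4 positive and 6 negative, where 58% of all tested genes were positive. Limma called 0 of them, against 6.26% of all tested genes, with 1 at an unadjusted p below 0.05, again against 26.4%. The 10 tested relatives of TRiC and prefoldin, which include the tubulin cofactors, had 0 called, 2 at an unadjusted p below 0.05 and a median of 0.09. The same 6.26% and 26.4% stand for all tested genes. The genes below the level filter, and so not tested, were CCT6B, CRYAB, HSPA2 and HSPA6. HSPA2 was at 0.22 and 0.48 FPKM under shNC and 0.72 and 1.03 FPKM under shWDR43, higher without overlap. CCT6B was at 0.50 and 0.72 FPKM against 0.48 and 0.27 FPKM, lower without overlap. CRYAB, a heat-inducible small heat-shock gene, was at 0.146 and 0.233 FPKM under shNC and 0.511 and 0.207 FPKM under shWDR43.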

How the data were processed

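RNA was sequenced from 2 shNC and 2 shWDR43 libraries of HCT116, made from 1 ug of total RNA each with an Illumina TruSeq kit per the labels' protocols. Per the submitters' processing notes, the tools were HISAT2, RSEM, edgeR, Trimmomatic, FastQC and CASAVA 1.8 and the build GRCh38, in roles and an order that are not stated. For the annotation release and the strand setting the answer is likewise not given in the sources used here. FPKM is the unit taken for the deposited values, from their range and sums, since no label or header states it. A blank entry was left out, and 99.6% of 29286 identifiers had a symbol. Whole-read steps were looked for among low values, and the fullest 1% window of ratios between libraries held at most 1.01% of low genes, so reads were not recovered.

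Differences were tested with limma 3.58.1 (R 4.3.3) after a log2(FPKM + 1) transform. Genes had to reach 1 FPKM in 2 or more libraries, and the fit had group as its sole term, a mean-variance trend, robust moderation, 2 residual degrees of freedom per gene and Benjamini-Hochberg adjustment over all tested genes. Fold changes on this scale understate the change of low genes, and p-values are two-sided. Genes on the list of 37 are all named whatever their result. Of the 66 further genes, those named are the called ones, those below the level filter (CCT6B, CRYAB, HSPA2 and HSPA6), SUGT1 and HSPB8. Apart from the called ones, these were singled out after their values were seen. The members and lists were chosen with earlier results of these data known. Coordinates and overlaps are from GENCODE release 29, and promoter sequences from RefSeq. Shared 50-base stretches were counted between each principal transcript and all transcripts of other genes. The fit was also run on simulated data, in which noise was drawn separately for each gene and library. Such data hold no shift shared by many genes of a library, so they cannot show how such a shift affects the calls here. There were 12 alternatives, namely no filter, a filter at 5 FPKM, a pseudocount of 0.1, 2 scalings, robust settings off, a replicate block, a crossed block added after the data were seen, and leaving out each library. With 2 libraries per group the smallest p of an exact permutation test on 1 gene is 0.333. Python 3.11.15 with pandas 2.3.3 and matplotlib 3.10.9 served for tables and plots.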

Additional observations from a re-analysis of the deposited data

How the results depend on the processing

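With 2 libraries per group and unknown depth, calls changed with the library that was left out. Of the 37 log2 differences, 29 kept their sign under every alternative that could be run and 8 did not (BAG3, DNAJA1, DNAJB1, HSF1, HSP90AB1, PFDN1, PFDN2 and STIP1), with 0 reversals of a called difference. There were 12 alternatives for 36 of the genes and 11 for HSPA1A, which was below the 5 FPKM filter. No filter on low values left 0 chaperone genes rising, 0 among HSP90 and cochaperones and 0 of the further list, with 15 genes rising and 2 falling over all genes. Median-ratio scaling gave 0 chaperone genes, 0 among HSP90 and cochaperones, 1 of the further list and 310 of all genes rising. Upper-quartile scaling gave 0, 0, 1 and 194, and moved the median log2 difference of all tested genes from 0.05 to -0.0136. Over the fits that leave out a library, genes rising numbered 245 to 1802 over all genes, 0 to 18 among the 37, 1 to 10 in the further list, 0 to 2 in the HSP70 system, 0 to 4 among HSP90 and cochaperones, 0 to 7 in TRiC, 0 to 2 in prefoldin and 0 to 3 among mitochondrial chaperones. Genes falling numbered 132 to 784, 0 to 3, 0 to 5, 0 to 0, 0 to 0, 0 to 0, 0 to 2 and 0 to 1 in that order. The shares of all tested genes rising and falling in these fits are given above. Where a group was down to 1 library, its spread was borrowed from the other group. Over all tested genes the SD of the difference between replicates was 0.245 in shNC and 0.177 in shWDR43. A call could thus be gained or lost with little change in the log2 difference. For FKBP4 that difference was 0.42 and 0.48 without shWDR43 replicates 1 and 2, against 0.45 with all libraries. The cause of these shifts was not tested.

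The deviations of same-numbered libraries had a correlation of -0.147 across 13303 genes, so the numbers were not taken as pairs. With the replicate block 413 genes rose over all genes, and FKBP4 kept its call (adjusted p = 0.0460). With the crossed block 1375 genes (10.3%) rose and 579 (4.35%) fell over all genes, with 5 and 1 among the 37 and 5 and 1 in the further list. Of the 37, 2 rose in the HSP70 system, 1 among HSP90 and cochaperones and 1 in prefoldin. Among mitochondrial chaperones 1 rose and 1 fell.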
